A study of Mus musculus with 2 samples.

Results

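The eye field transcription factors are a set of 8 genes, *Pax6*, *Six3*, *Six6*, *Rax*, *Lhx2*, *Meis1*, *Meis2* and *Eya1*, out of 31253 genes with a symbol in the table. Their transcript rows were found by symbol, and the rows of a gene were summed. They held 36 rows, of which 20 were curated RefSeq transcripts and the rest predicted ones. Values were FPKM, fragment numbers normalised to transcript length and library size, from RNA sequencing of 2 libraries. One library was made from cultured retinal progenitors of the mouse, called mNRPCs, at passage 24, and the other from retina tissue. Both were of the C57BL/6 strain, and no transgene or mutation was named. By the study's methods, mNRPCs were grown out of dissociated adult neural retina on Matrigel in an N2 and B27 medium. It was supplemented with bFGF, a fibroblast growth factor, and with CHIR99021, which blocks the kinase GSK3. The mNRPC library was therefore a long-passaged culture, and the retina library was a mixture of all cells of the tissue. There was 1 library per group. The differences below therefore have no replicate check, and none was tested.

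The eye field is the single patch of anterior neural plate from which both eyes arise. Its transcription factors form a network in which members switch one another on, and they bind DNA mostly through homeodomains. Later they act in the optic vesicle and in dividing retinal progenitors. In the mature retina those that are retained occur in only some cell types, such as amacrine cells, ganglion cells or Müller glia.

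The members did not move as a group. *Pax6*, *Six3* and *Meis2* lay within the threshold, *Meis1* and *Lhx2* were lower in mNRPCs, and *Rax* and *Six6* were listed at 0. *Eya1* alone was higher in mNRPCs past the threshold. The log2 ratio was log2((mNRPC FPKM + 1)/(retina FPKM + 1)), and the threshold for a higher or lower call was a size of 1, or 2-fold. Of 13780 genes with at least 1 FPKM in 1 library or more, 24.5% were higher and 30.0% were lower in mNRPCs. Among the 8 members 1 was higher and 4 were lower, and 3 lay within the threshold. The median log2 ratio was -0.76 for the members and -0.12 for all genes compared. Of the genes called either way, 44.9% were higher in mNRPCs. This share was 30.2% when both libraries were rescaled to the same FPKM sum, and 5 members were then lower. Of all genes compared under that scaling, 18.4% were higher and 42.4% were lower.

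**Figure D1:**
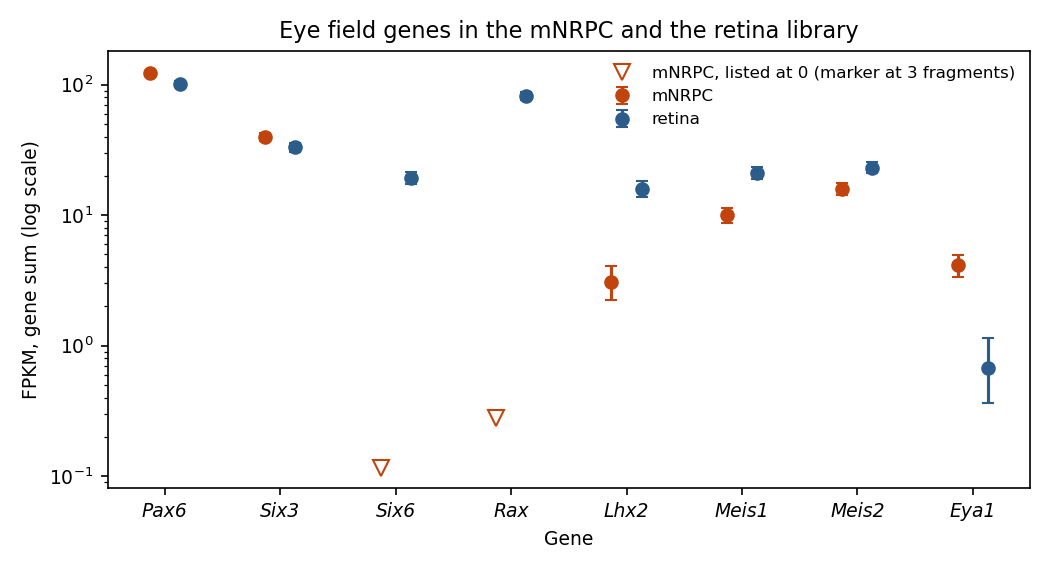
Gene sums of the 8 members in FPKM on a log axis, in the mNRPC library (orange) and the retina library (blue). Bars are 95% Poisson intervals for counting error on estimated fragments, and open triangles mark the level of 3 fragments for the 2 genes listed at 0. *Pax6* stands highest in both libraries, and *Pax6*, *Six3* and *Eya1* have retina intervals below those of mNRPCs, of which *Eya1* alone is past the 2-fold threshold.

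Depth was estimated from the FPKM values at 6.47e+06 fragments for mNRPCs and 5.07e+06 for the retina, and intervals in this text are 95% Poisson intervals from it. Intervals of log2 ratios are normal approximations from the same fragments. All cover counting error only. Both labels were checked against markers. All 8 progenitor markers were higher in mNRPCs, with a summed level of 3845 FPKM against 147 in the retina, and 7 of 8 were under the common sum, trimmed mean and upper quartile scalings. *Vim*, an intermediate filament gene also used by mesenchyme, held 3138 and 101 FPKM of these sums, and without it they were 707 and 45.5 FPKM. All 10 rod markers were lower, with a sum of 7.87 FPKM against 19391. Bulk RNA cannot tell fewer cells of a type from less RNA per cell. The mesenchyme list also differed, at 453 FPKM in mNRPCs and 4.39 in the retina, of which *Col3a1*, a fibrillar collagen, held 450 and 0.311 FPKM. Without *Col3a1* the list was low in both libraries. *Col1a1* was at 1.35 FPKM in mNRPCs and 0.552 in the retina, *Col1a2* at 0.0843 and 0.952 FPKM, and *Dcn* at 1.96 and 2.58 FPKM, while *Lum* was listed at 0 in both.

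**Figure D2:**
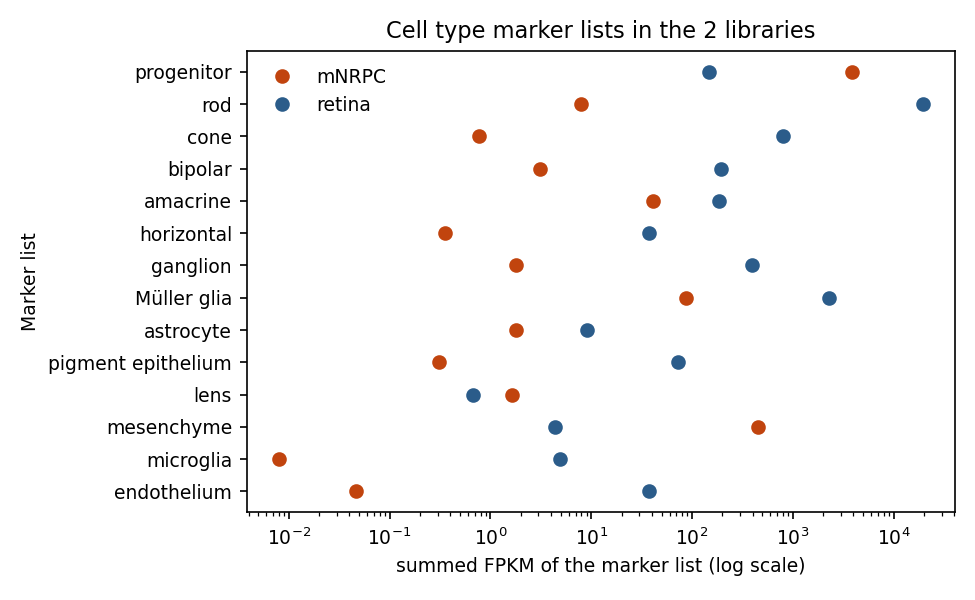
Summed FPKM of each cell type marker list on a log axis in the mNRPC library (orange) and the retina library (blue). The progenitor, mesenchyme and lens sums lie higher in mNRPCs, the lens sums being 1.65 and 0.673 FPKM. The other lists lie higher in the retina.

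*Pax6* encodes a transcription factor with a paired domain and a homeodomain, and eyes fail to form without it. Its gene lies on the forward strand at chr2:105668896-105698410 (GRCm38.p6). The gene sum was 122.6 FPKM in mNRPCs, with an interval of 117 to 128. The retina value was 100.7 FPKM, with an interval of 95.4 to 106. The level in mNRPCs was thus slightly above that of the tissue. The log2 ratio was 0.28, with an interval of 0.18 to 0.38. *Pax6* ranked 692 among 11076 genes at 1 FPKM or more in mNRPCs, and 610 among 12639 such genes in the retina. When both libraries were rescaled to a common sum the ratio turned to -0.23.

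All 5 *Pax6* rows were curated transcripts with a known structure. Exon 5a is an alternative exon that lengthens the paired domain and changes the DNA sequences it binds. It lies at chr2:105684751-105684792, in the coding part of the gene. Its sequence is shown because the rows differ by it, with the 42 exon bases in capitals and 24 bases of each neighbouring exon of the spliced transcript in lower case, from the GENCODE M21 transcripts of GRCm38.
Pax6 exon 5a with flanks: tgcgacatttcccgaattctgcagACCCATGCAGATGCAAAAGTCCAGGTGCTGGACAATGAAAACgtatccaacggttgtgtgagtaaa

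Rows with exon 5a summed to 56.4 FPKM in mNRPCs and 53.0 FPKM in the retina. Rows without it summed to 66.2 and 47.7 FPKM. The form with the exon thus held 46.0% of *Pax6* in mNRPCs and 52.6% in the retina. The 2 main rows were NM_001244201.1 without the exon, at 64.1 and 46.3 FPKM, and NM_001244198.1 with it, at 49.3 and 45.8 FPKM. Both begin at the upstream start. The rows NM_001244200.1, NM_013627.5 and NM_001244202.1 begin downstream and were low. Their mNRPC values were 5.19, 1.91 and 2.18 FPKM, against 5.20, 2.06 and 1.42 FPKM in retina tissue. The upstream start carried 92.4% of *Pax6* in mNRPCs and 91.4% in the retina. The rows share nearly all their bases, and the error of the division among them is not known.

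The 250 bases before the *Pax6* start are shown because nearly all of its signal was assigned to rows that begin there. The window is chr2:105668646-105668895 on the forward strand, from RefSeq (GRCm38.p6). Capitals mark matches, on either strand, to the CCAAT box, the TATAAA box, the GC box core GGGCGG or the homeodomain core TAATTA. Its GC content was 60.8%, against a median of 52.4% over 32851 such windows.
Pax6 upstream window: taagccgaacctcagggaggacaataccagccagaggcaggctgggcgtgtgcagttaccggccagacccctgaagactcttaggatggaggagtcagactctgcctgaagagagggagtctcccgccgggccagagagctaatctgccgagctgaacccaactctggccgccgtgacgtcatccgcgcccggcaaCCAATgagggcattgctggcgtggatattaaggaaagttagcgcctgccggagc

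The *Pax6* window held 1 CCAAT match and none of the other motifs. CCAAT was found in 33.8% of all windows, GGGCGG in 32.7%, TATAAA in 12.4% and TAATTA in 4.84%. The antisense neighbour *Pax6os1* (chr2:105536080-105670330) overlaps the first exon of *Pax6*. It was at 1.44 FPKM in mNRPCs and 4.15 FPKM in the retina, far below *Pax6* in both. Whether the libraries kept strand was not given in the sources used here, so reads of the overlap cannot be told apart.

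In the mature retina *Pax6* and *Six3* are known from amacrine and other inner retinal neurons. The summed amacrine markers were 41.4 FPKM in mNRPCs and 184 FPKM in the retina. *Tfap2a*, a transcription factor also used outside the retina, made up 31.3 FPKM of the mNRPC sum. The GABA-synthesising enzyme *Gad1* stood at 0.0858 FPKM against 103 in the retina, and the inhibitory vesicle transporter *Slc32a1* was at 0.0521 and 35.5 FPKM. *Tfap2b*, *Chat* and *Th* were listed at 0 in mNRPCs. The glycine transporter *Slc6a9* was at 6.91 FPKM in mNRPCs and 11.2 in the retina, within the threshold. *Gad2* was at 3.05 and 11.1 FPKM. Of the 8 amacrine markers 1 was thus higher, 6 were lower and 1 lay within the threshold, and the part of this list in the *Pax6* and *Six3* levels was not tested.

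*Six3* and *Six6* are sister genes of the SIX-class homeobox family. *Six3* holds the forebrain and eye territory free of Wnt signals, and *Six6* keeps retinal progenitors dividing. *Six3* lies at chr17:85613608-85626191 and *Six6* at chr12:72939882-72944899. Each had 1 transcript row, so no splitting between isoforms enters their values. *Six3* was at 39.7 FPKM in mNRPCs, with an interval of 37.2 to 42.3. Retina tissue gave 33.2 FPKM, with an interval of 30.6 to 35.9. The pair of values was close, like that of *Pax6*. Its log2 ratio was 0.25, with an interval of 0.11 to 0.39, and it turned to -0.25 under a common sum. *Six6* differed from its sister gene. It was listed at 0 in mNRPCs, where 3 fragments would give 0.116 FPKM, and was at 19.3 FPKM in the retina, with an interval of 17.5 to 21.3.

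The upstream windows of the sister genes are shown side by side because their levels in mNRPCs differed. They are chr17:85620584-85620833 for *Six3* and chr12:72939632-72939881 for *Six6*, both on the forward strand, with capitals as for *Pax6*.
Six3 upstream window: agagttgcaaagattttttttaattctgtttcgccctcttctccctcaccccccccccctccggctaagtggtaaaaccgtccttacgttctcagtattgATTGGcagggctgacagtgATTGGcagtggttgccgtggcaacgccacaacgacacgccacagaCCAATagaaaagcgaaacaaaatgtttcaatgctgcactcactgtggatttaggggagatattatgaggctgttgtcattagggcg
Six6 upstream window: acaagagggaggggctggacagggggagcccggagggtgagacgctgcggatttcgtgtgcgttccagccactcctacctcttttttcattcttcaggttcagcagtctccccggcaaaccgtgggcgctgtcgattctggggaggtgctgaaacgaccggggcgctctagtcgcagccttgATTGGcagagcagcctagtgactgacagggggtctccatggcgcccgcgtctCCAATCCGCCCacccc

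The *Six3* window held 3 CCAAT matches, and that of *Six6* held 2 with 1 GGGCGG match on the reverse strand, directly beside one of them. GC content was 48.8% for *Six3* and 62.8% for *Six6*. A match describes the letters only. The antisense neighbour *Six3os1* (chr17:85601932-85618396) was at 18.5 FPKM in mNRPCs and 16.7 FPKM in the retina. Its log2 ratio was 0.14, with an interval of -0.03 to 0.31. The curated *Six3* transcript begins beyond its end.

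*Rax* is the retinal homeobox gene that is needed for optic vesicles to form at all. It lies at chr18:65934639-65939089 and had 1 row. It was listed at 0 in mNRPCs, where 3 fragments would give 0.277 FPKM. In the retina it was at 81.7 FPKM, with an interval of 75.7 to 88.0, second among the members there. No fold is given against a value of 0, which can be a failed estimate. Of 6435 genes between 10 and 200 FPKM in the retina, 233 (3.62%) were listed at 0 in mNRPCs. The reverse held for 41 of 6023 genes (0.681%). *Rax* and *Six6* were among the 233.

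*Lhx2* encodes a LIM homeodomain factor that carries the optic vesicle into the optic cup and is kept in Müller glia. It lies at chr2:38339271-38369737. Its gene sum was 3.06 FPKM in mNRPCs, with an interval of 2.23 to 4.10, from about 44.9 fragments. The retina sum was 15.9 FPKM, with an interval of 13.7 to 18.4. The mNRPC level was 19.3% of that of the retina and the intervals lay far apart. The log2 ratio was -2.06, with an interval of -2.43 to -1.68. Row choice moved it by more than that interval, to -1.27 with curated rows only and -1.26 with the highest row. It was -2.66 under a common sum and -2.67 with versions matched, and *Lhx2* was past the threshold in each. Most of the gene sat on predicted rows. XM_006497738.2 led in mNRPCs, at 2.39 FPKM against 6.27 in the retina. XM_006497733.1 led in the retina, at 7.09 FPKM against 0.131 in mNRPCs. It held 44.6% of retina *Lhx2* and 4.29% in mNRPCs, so the drop was uneven over the rows. XM_006497739.1 was at 0.502 and 1.06 FPKM, and the curated NM_010710.4 was at 0.00910 and 1.27 FPKM.

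All 8 Müller glia markers were lower in mNRPCs, with a sum of 86.7 FPKM against 2268 in the retina, and all 7 ganglion cell markers were lower, at 1.81 against 394 FPKM. These lists moved in the same direction as *Lhx2*, *Rax* and *Six6*. That direction was not particular to them, as all 10 rod, all 5 cone and all 5 bipolar markers were also lower. The 8 progenitor markers were all higher, and 30.0% of all genes compared were lower. The part of any of these lists in the lower levels of *Lhx2*, *Rax* and *Six6* was not tested.

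*Meis1* and *Meis2* encode TALE homeodomain proteins, which bind DNA beside Pbx and Hox partners and act on *Pax6* enhancers in the developing lens. They lie at chr11:18880428-19019651 and chr2:115861264-116067537. *Meis1* was at 9.98 FPKM in mNRPCs, with an interval of 8.67 to 11.4. The retina value was 21.01 FPKM, with an interval of 18.8 to 23.4. Its log2 ratio of -1.004 lay on the threshold, with an interval of -1.23 to -0.77, so its call rests on the choice of threshold. *Meis2* was at 15.9 FPKM in mNRPCs, with an interval of 14.2 to 17.6. In the retina it was at 23.2 FPKM, with an interval of 20.9 to 25.6. Its ratio was smaller, -0.52 with an interval of -0.72 to -0.32, and it was -1.03 and past the threshold under a common sum but -0.12 with curated rows only.

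*Meis1* and *Meis2* both end in alternative last coding exons. For *Meis1*, the short form NM_001193271.1 was at 7.36 FPKM in mNRPCs and 17.3 FPKM in the retina. The long form NM_010789.3 was at 2.61 and 3.21 FPKM. The difference was therefore larger in the short form. The long form held 26.2% of the rows with a known structure in mNRPCs and 15.7% in the retina. For *Meis2*, long rows held 22.0% in mNRPCs and 14.7% in the retina.

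Another *Meis2* exon begins with or without a segment of 21 bases. The exon lies at chr2:115867269-115867379 on the reverse strand of GRCm38, and the segment is chr2:115867359-115867379. It is shown because its share differed between libraries, with the segment in capitals.
Meis2 exon with 21-base segment: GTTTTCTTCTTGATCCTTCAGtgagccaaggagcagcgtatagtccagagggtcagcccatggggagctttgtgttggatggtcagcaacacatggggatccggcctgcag

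Rows with the segment summed to 3.96 FPKM in mNRPCs and 2.58 FPKM in the retina. Rows without it summed to 7.96 and 10.4 FPKM. The share with the segment was 33.2% in mNRPCs and 19.9% in the retina, of rows with a known structure. These rows left out 4 predicted ones, which held 25.0% of *Meis2* in mNRPCs and 43.9% in the retina. The strongest row was NM_001136072.2, at 5.05 and 7.05 FPKM. NM_001159567.1 was higher in mNRPCs, at 3.63 FPKM against 1.96, as was NM_010825.3, at 2.54 against 1.76. NM_001159570.1 was at 0.358 FPKM in mNRPCs and 1.61 in the retina. The predicted XM_006498871.2, XM_006498864.2 and XM_011239337.1 were lower in mNRPCs, at 0.771, 2.65 and 0.551 FPKM against 4.82, 4.16 and 1.13.

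**Figure D3:**
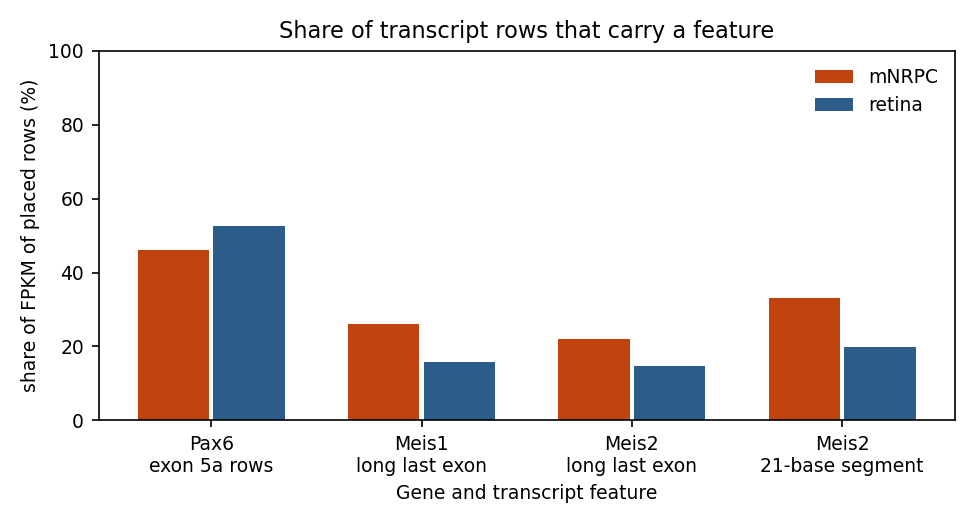
Share in percent of the FPKM of rows with a known structure that carries each transcript feature, for the mNRPC library (orange bars) and the retina library (blue bars). The exon 5a share of *Pax6* is lower in mNRPCs (46.0% against 52.6%), and the other 3 shares are higher.

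*Eya1* encodes a coactivator with phosphatase activity that has no DNA-binding domain and works through SIX-class proteins. It lies at chr1:14168953-14311035. It was at 4.12 FPKM in mNRPCs, with an interval of 3.37 to 4.98, from about 105 fragments. Retina tissue gave 0.673 FPKM, with an interval of 0.361 to 1.14, from about 13.3 fragments. The intervals did not meet. The plain ratio was 6.12, and the log2 ratio was 1.61 with an interval of 1.23 to 1.996, the added 1 shrinking the change of so low a gene. Its rows at 1 FPKM or more were XM_006495451.2, at 1.29 and 0.170 FPKM, and NM_010164.2, at 1.24 and 0.000562 FPKM. The last value lay under the level of 3 fragments, which was 0.152 FPKM for the gene in the retina. XM_006495452.2, named after its value was seen, went the other way, at 0.0282 FPKM in mNRPCs and 0.342 in the retina. It held 50.8% of retina *Eya1* and 0.686% in mNRPCs, so the rise was uneven over the rows. With the highest row in place of the gene sum, *Eya1* was no longer past the threshold.

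The order of the members changed between libraries. In the retina it was *Pax6*, *Rax*, *Six3*, *Meis2*, *Meis1*, *Six6*, *Lhx2* and *Eya1*. The intervals of *Meis2* and *Meis1*, of *Meis1* and *Six6*, and of *Six6* and *Lhx2* overlapped. In mNRPCs the order was *Pax6*, *Six3*, *Meis2*, *Meis1*, *Eya1* and *Lhx2*, with the last pair overlapping.

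**Figure D4:**
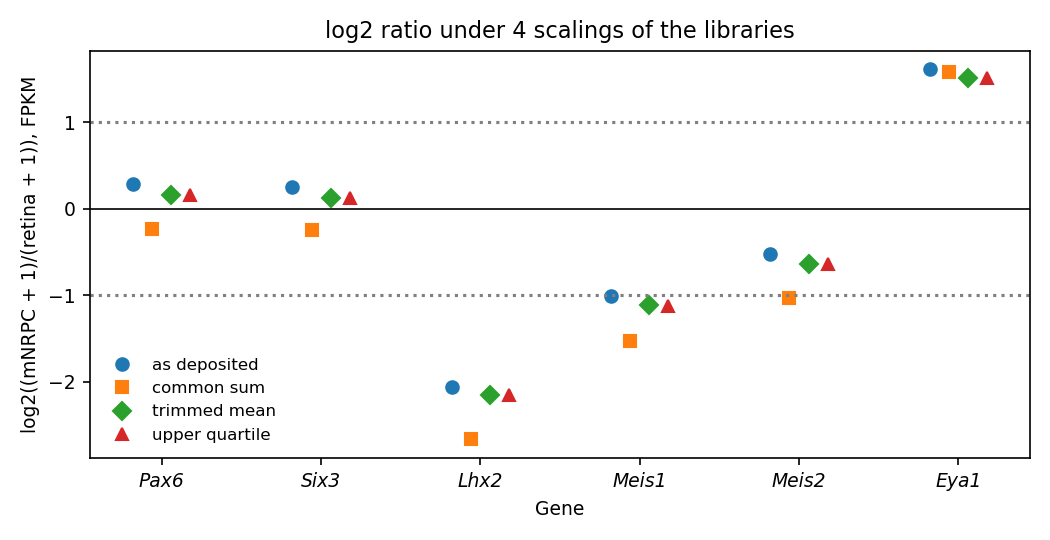
log2 ratio of the 6 members above 0 in both libraries, under 4 scalings of the FPKM values (as deposited, common sum, trimmed mean, upper quartile). Dotted lines mark the threshold of 1 in either direction. *Pax6* and *Six3* cross 0 under the common sum (-0.23 and -0.25), and *Eya1* and *Lhx2* keep their side of the threshold under all 4.

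The partners of the members were described from lists of related genes. Their counts stand beside 24.5% higher and 30.0% lower over all genes compared as deposited, and 18.4% and 42.4% under the common sum. In the SIX-class, EYA and DACH family, 8 of 9 genes were compared, of which 4 were higher and 2 lower in mNRPCs, with a median of 0.52. Under the common sum 3 were higher and the median was 0.12. *Six2*, a gene of kidney progenitors, was at 12.9 FPKM in mNRPCs and 0.468 in the retina. *Six4* and *Six5* were also higher. *Eya2* and *Dach2* were listed at 0 in mNRPCs, against 1.18 and 1.13 FPKM, and are named after their values were seen, as is *Six5*. *Eya1* was thus higher in mNRPCs, as were *Six2*, *Six4* and *Six5*, while *Six6* was listed at 0, as were *Eya2* and *Dach2*. *Eya3*, also named after its value was seen, was at 8.03 FPKM in mNRPCs and 8.68 in the retina, within the threshold. Of the mesenchyme list above, *Col3a1* alone was past the threshold in the same direction as *Six2* and *Eya1*, and its part was not tested.

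Of 9 TALE partners, 2 were higher and 3 lower, with a median of 0.07 that turned to -0.42, -0.04 and -0.05 under the common sum, trimmed mean and upper quartile. These shares were close to those over all genes. *Tgif1* and *Tgif2*, repressors of the TALE class, were at 51.5 and 16.8 FPKM in mNRPCs, against 2.64 and 0.339 FPKM in the retina. *Pbx3*, a DNA-binding partner of Meis proteins, was at 11.3 FPKM in mNRPCs and 24.8 in the retina, close to *Meis1*.

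Of 15 LIM homeobox genes and cofactors compared, 1 was higher and 11 lower, with a median of -1.60. Under the common sum 16 were compared, of which 2 were higher and 11 lower, with a median of -2.30. *Lmo4*, a LIM-only protein, was at 129 FPKM in mNRPCs and 37.1 in the retina. *Isl1*, a factor of ganglion and bipolar cells, was at 2.25 and 29.9 FPKM, and the LIM cofactor *Ssbp4* was at 16.8 and 91.9 FPKM. *Lhx2* was lower, as were those 11. In the PAX family only *Pax9* of 8 genes reached 1 FPKM, at 1.92 in mNRPCs and listed at 0 in the retina, so *Pax6* was its only member at a high level. *Pax9* is named after its value was seen.

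Of 10 other eye field and optic vesicle factors compared, 2 were higher and 7 lower, with a median of -2.08. Under the common sum these were 2 and 9 of 11, with a median of -2.81. *Sox2*, a factor of neural progenitors, was at 231 FPKM in mNRPCs and 18.5 in the retina. The optic vesicle gene *Otx2* was at 0.0713 FPKM in mNRPCs, under the level of 3 fragments, against 119 FPKM in the retina. In the mature retina *Otx2* is also a gene of photoreceptors and bipolar cells. The summed markers of bipolar cells were 3.11 against 193 FPKM, and the part of these cells was not tested.

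All 6 genes of corepressors and geminin, partners of SIX-class proteins, were compared, of which 3 were higher and none lower, with a median of 0.96. Under the common sum 2 were higher and 1 lower, with a median of 0.47. *Gmnn*, which encodes geminin, a replication inhibitor that *Six3* and *Six6* bind, was at 29.1 FPKM in mNRPCs and 2.46 in the retina. The Groucho corepressor *Tle1* was at 36.8 and 11.3 FPKM. Of 7 target genes compared, 1 was higher and 4 lower, with a median of -1.14, or -1.92 under the common sum. *Ccnd1*, cyclin D1, was at 371 FPKM in mNRPCs and 4.26 in the retina. *Neurod1*, a neurogenic factor, was listed at 0 in mNRPCs against 263 FPKM, and *Neurod4* was at 0.0263 FPKM, under the level of 3 fragments, against 57.3. *Ccnd1* is also one of the 8 progenitor markers, all higher in mNRPCs. The summed rod and bipolar markers were 7.87 and 3.11 FPKM in mNRPCs, against 19391 and 193 in the retina. The part of these cells in the target genes was not tested.

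**Figure D5:**
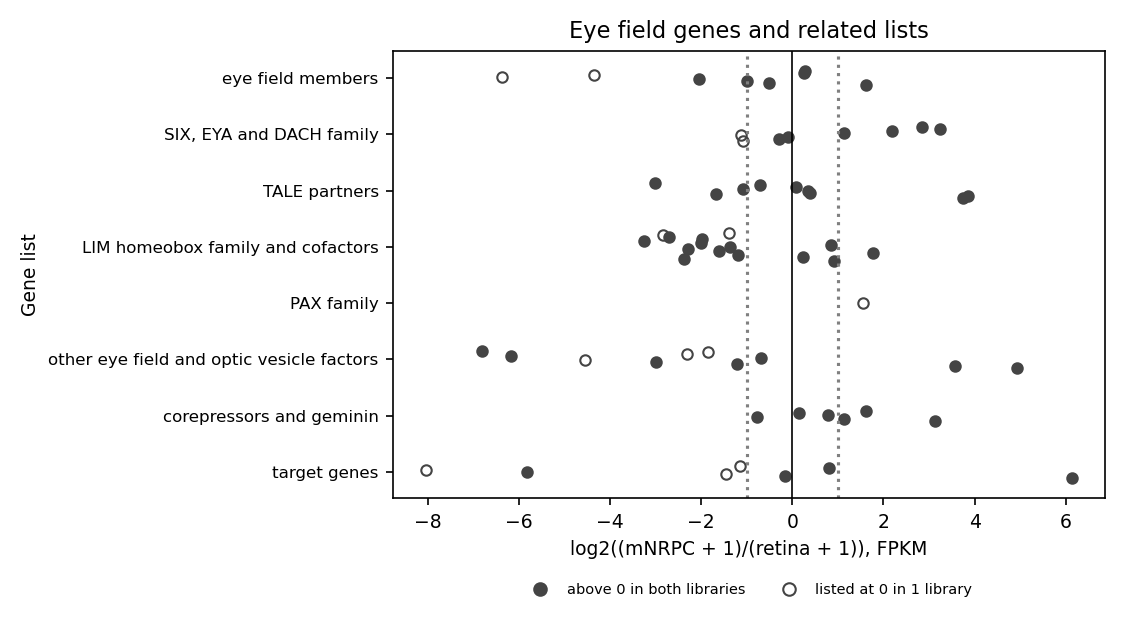
log2 ratios of the genes compared in each related list, one point a gene, with open points for genes listed at 0 in 1 library and dotted lines at the threshold of 1. The LIM list and the other eye field factors lie mostly below 0 (medians -1.60 and -2.08), and the corepressors mostly above it (0.96, or 0.47 under a common sum).

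Closeness to each member was measured as the Euclidean distance on log2(FPKM + 1) over the 2 libraries, among 78 related genes. With 2 points this describes level alone. Of the genes nearest to *Rax*, *Neurod4* lay at a distance of 0.51. *Six6* lay nearest to *Mab21l2* (0.20) and *Meis3* (1.20). *Pax6* lay nearest to *Mab21l1* (0.79) and *Lmo4* (1.42), and *Six3* to *Ldb1* (0.64) and *Cdkn1b* (0.73). *Lhx2* lay nearest to *Lmo1* (0.23) and *Isl1* (0.93), *Meis1* to *Ssbp2* (0.17) and *Pbx3* (0.28), and *Pbx3* lay at 0.47 from *Meis2*. *Eya1* lay nearest to *Six4* (0.41). *Neurod4*, *Mab21l2* and *Meis3* were thus also at or under the level of 3 fragments in mNRPCs.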

How the data were processed

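FPKM values for 106754 RefSeq transcript rows were deposited by the authors, 1 column per library. The labels' processing notes name TopHat2 2.0.10 and GRCm38.p3. The study's methods name Bowtie 2 and eXpress for its RNA sequencing, and another sequencer than the series text, so the tool behind these values is uncertain. Shared reads are divided by estimation, which makes single rows less certain than gene sums.

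Accessions were matched without version to the RefSeq table of GRCm38.p6, then to GENCODE M21. This named 74280 rows (69.6%), and 99.6% of 33511 curated rows. All 8 members and 167 of 168 list genes were in the table. Exon structures came from GENCODE M21 for the 20 curated member rows, and its transcript versions can differ from those of the table. Upstream windows of 250 bases were found for 6 members. Values below 1e-06 FPKM were read as 0.

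Ratios used a pseudocount of 1, a minimum of 1 FPKM in 1 library or more, and a 2-fold threshold. Depth was estimated from the most common low value of FPKM times length over 6230 rows of at least 1500 bp, and fragments per gene from it. Rows without a known length took the median length of the other rows of their gene. Most of *Lhx2* and of retina *Eya1* sat on such rows, so their fragments and intervals rest on borrowed lengths. The estimate was tested on simulated data. Named genes were all members, their rows at 1 FPKM or more, in each list the 2 highest and 2 lowest ratios past the threshold among genes at 10 FPKM or more, and the 2 list genes nearest to each member. Some genes that this rule names are not reported here. Members and lists were chosen with earlier results of these data known. Alternatives were another pseudocount, minimum, threshold, scaling, row choice and accession match. Python 3.11.15, numpy 2.4.6, pandas 2.3.3, scipy 1.17.1 and matplotlib 3.10.9 were used.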

Additional observations from a re-analysis of the deposited data

How the results depend on the processing

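The count of 1 higher member fell to 0 at a minimum of 5 FPKM, where 26.9% of all genes were higher. It was also 0 with the highest row in place of the gene sum, where 25.6% were higher. At a 4-fold threshold it was 0 as well, where 11.2% were higher. The count of 4 lower members was 2 with accessions matched by version, where 6 members were compared and 28.4% of all genes were lower. It was 5 under a common sum, where 42.4% of all genes were lower, and 3 with curated rows only, where 27.9% were lower and *Meis1* was at -0.97. It was 3 at a 4-fold threshold, where 14.1% of all genes were lower. The median log2 ratio of the members was -1.004 at a minimum of 5 FPKM, -1.28 under a common sum, -0.54 with curated rows only and -0.54 with versions matched. It was -1.35 when rod and cone markers were left out and the rest rescaled, an alternative chosen after seeing the data. *Pax6* and *Six3* turned to -0.23 and -0.25 under the common sum, and to -0.30 and -0.32 without rod and cone markers. The median of all genes moved from -0.12 to -0.68 under the common sum. Relative to it *Pax6* was 0.40 as deposited and 0.46 under the common sum, and *Six3* 0.37 and 0.43. No paired analysis was possible because there was a single library of each kind. Depth limits *Eya1* in the retina, at about 13.3 fragments, and *Lhx2* in mNRPCs, at about 44.9. The causes of these shifts were not tested.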
